A study of Mus musculus with 17 samples.

Results

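Nanos1, Nanos2, Nanos3, Dazl, Dnd1, Pum2, Boll, Cpeb1 and Elavl2 encode RNA-binding proteins of germ cells. They were chosen by gene symbol, and all 9 were found among the 23972 genes with a usable value in both stages of the series. Poly(A)+ RNA was sequenced from mice whose strain the labels give as C57BL6/J, in leptotene/zygotene (L/Z) spermatocytes sorted by FACS from testes 3 to 4 weeks after birth and in whole testes at postnatal day 0 (P0). The L/Z libraries were WT (n = 2), Pld6 KO (n = 2) and Dnmt3l KO (n = 2). The P0 libraries were WT (n = 2), Pld6 KO (n = 4), Dnmt3l KO (n = 2) and the double knockout of both genes, DKO (n = 3). Both knockouts are constitutive lines backcrossed to this strain, so the somatic cells of a P0 testis carry them too. The labels call the samples biological replicates but do not say whether animals were pooled.

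Germ cells control many mRNAs after transcription, through proteins that bind the 3′ end of the message and set how long its poly(A) tail is and whether it is translated. NANOS proteins bring the CCR4-NOT deadenylase to their targets, with Pumilio proteins and DND1 as partners, while DAZL and BOLL of the DAZ family and CPEB1 are best known as regulators of translation and of tail length, and ELAVL2 binds AU-rich elements. PLD6 is a mitochondrial outer membrane protein needed to make piRNAs, and DNMT3L is the cofactor of the de novo DNA methyltransferases in germ cells. The series compares the loss of each, and of both, and here the question is whether the messages of these regulators changed with them.

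The libraries held between 5194238 and 14578341 gene-assigned fragments in L/Z spermatocytes and between 9900346 and 23498968 in P0 testes. Pld6 had at most 2 fragments in each library labelled as its knockout or DKO and at least 21 in each of the others. Dnmt3l had at most 3 fragments in its knockout and DKO libraries, against 6 to 145 elsewhere, so the labels hold for both targeted genes. The 45S ribosomal RNA gene Rn45s took between 8.06% and 8.27% of fragments in WT replicate 1 and Pld6 KO replicate 1 of the L/Z stage and at most 0.3% in the other 4 L/Z libraries. The 12 markers of L/Z spermatocytes summed to between 2625 and 4379 CPM (counts scaled to library size) in L/Z WT. The sum was between 3211 and 4984 for Pld6 KO and between 8108 and 8627 in Dnmt3l KO. In the sorted cells 12 Sertoli cell markers summed to 974.8 to 1189 CPM for WT, 859.1 to 1043 for Pld6 KO and 531.9 to 588.7 for Dnmt3l KO. Dmrt1, also a spermatogonia marker, gave a large part of the Sertoli sum in WT and Pld6 KO. That sum therefore does not measure Sertoli cells alone.

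In WT L/Z spermatocytes Dazl was by far the most abundant message of the group, at 433.7 and 591.9 FPKM (fragments per kilobase of transcript, scaled to library size) in the 2 libraries. Boll followed at 46.84 and 45.96 FPKM, Pum2 at 41.14 and 37.93, Cpeb1 at 32.64 and 45.97, Dnd1 at 34.61 and 34.44, and Elavl2 at 23.26 and 22.39. Nanos1 lay lower, at 12.06 and 9.802 FPKM, next to Nanos3 at 12.62 and 7.209. Nanos2, the member known from stem and early spermatogonia, was close to the limit of detection at 1.023 and 0.3418 FPKM. Cpeb1 overlapped Boll, Pum2 and Dnd1 in this order and Nanos3 overlapped Nanos1, whereas the other neighbours were separated by more than the range of their 2 libraries.

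**Figure D1:**
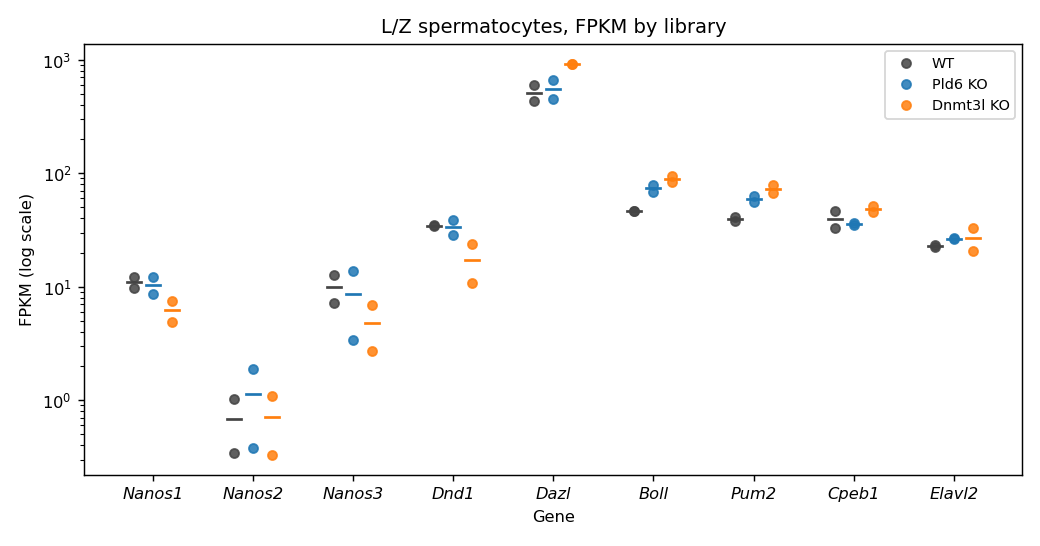
FPKM on a log scale of the 9 genes in each of the 6 L/Z spermatocyte libraries (points, coloured by genotype), with a bar at each group mean. Dazl lies between 433.7 and 923.5 FPKM in every library, and Boll and Pum2 are lowest in the WT libraries.

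At P0 the order was another one. Pum2 stood at 39.23 and 39.75 FPKM in the WT libraries and Dazl at 37.58 and 31.89, whereas each of the other 7 genes was under 5 FPKM. Elavl2 measured 3.74 and 4.386 FPKM, Dnd1 3.944 and 4.175, Nanos3 2.484 and 3.16, Cpeb1 2.889 and 2.298, Boll 2.047 and 2.029, and Nanos1 0.8396 and 1.303. Nanos2 was listed at 0 in WT replicate 1 and at 0.06576 FPKM in WT replicate 2, where it rests on 1 fragment. Elavl2 overlapped Dnd1 and Cpeb1 overlapped Nanos3. The 2 stages were normalised in separate tables and differ in read layout and tissue, so their levels are set side by side without a test. In whole testes, and in a sort that also held markers of other cell types, fewer cells of a type and less RNA per cell cannot be told apart.

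Each genotype was then compared with WT by edgeR's quasi-likelihood test over all genes of the stage. A gene was called when its Benjamini-Hochberg adjusted p (FDR) was under 0.05 and its change was over 2-fold. All 9 members passed the filter on low counts in both stages, Nanos2 at P0 only through the DKO libraries, so that each comparison below tested 9 of 9. No member was called in any of the 11 comparisons by this rule.

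The comparison of Dnmt3l KO with WT L/Z spermatocytes asks what the loss of de novo methylation does at the onset of meiosis. Of all 14662 genes tested here 5.47% were called, 3.89% higher and 1.58% lower, against 0 of the 9 members. Pum2, Boll and Dazl were higher in both Dnmt3l KO libraries than in both WT libraries, and Nanos1, Nanos3 and Dnd1 were lower in both. Such non-overlap was common, since 28.1% of all genes did not overlap in the higher direction and 27.5% in the lower one.

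Of the DAZ family both genes were higher without overlap. Boll (chr1:55243566-55363789, mm10), a DAZ family protein of meiotic germ cells, had 40.57 and 39.61 CPM in WT and 80.78 and 73.85 CPM in Dnmt3l KO. Its log2 fold change was 0.95 (SE 0.21, FDR 0.0285), which passed the FDR threshold but stayed just under 2-fold. Dazl (chr17:50279393-50293620), which binds U-rich elements in its targets and is needed for germ cell development, had 1198 and 1635 CPM in WT and 2462 and 2575 CPM in Dnmt3l KO. The 2 groups did not overlap, but its log2 fold change of 0.83 (SE 0.29) gave an FDR of 0.101.

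Among the partners of NANOS, Pum2 (chr12:8674092-8752583), a Pumilio protein, had 241.1 and 222 CPM in WT and 450.3 and 392.3 CPM in Dnmt3l KO. It passed the FDR threshold at a log2 fold change of 0.86 (SE 0.21, FDR 0.0373). By an FDR under 0.05 alone, 7.2% of all genes passed, and 5.27% of all genes passed in the higher direction. Among the members Boll and Pum2 passed, both higher. Dnd1 (chr18:36763671-36766214), the partner of NANOS2 in male germ cells, had 44.04 and 43.86 CPM in WT and 13.6 and 30.49 CPM in Dnmt3l KO, a log2 fold change of -0.96 (SE 0.34, FDR 0.102). The 2 Dnmt3l KO libraries differed from each other more than the 2 WT libraries did. Without Dnmt3l KO replicate 2 Dnd1 was called, at a log2 fold change of -1.69 (FDR 0.0413), and without replicate 1 it stood at -0.55 (FDR 0.36), so its size rested on which of the 2 libraries was kept.

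None of the NANOS genes was called. Nanos1 (chr19:60755987-60759914) had 45.14 and 36.72 CPM in WT and 18 and 28.34 CPM in Dnmt3l KO, a log2 fold change of -0.80 (SE 0.29, FDR 0.113). Nanos3 (chr8:84173733-84176552), which is needed to keep primordial germ cells alive, had 79 and 45 fragments in WT and 7 and 52 in Dnmt3l KO, and its log2 fold change of -0.95 carried an SE of 0.67 (FDR 0.384). With a factor for the 2 libraries rich in 45S rRNA it was -0.18 (FDR 0.874). Its Dnmt3l KO level in CPM lay below WT in both libraries, by only 3.721 against 3.825 CPM at the nearest pair. Nanos2 rested on 15 and 5 fragments in WT and 2 and 19 in Dnmt3l KO, with overlapping groups. At this depth no difference of Nanos2 was detectable in L/Z spermatocytes.

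Cpeb1 and Elavl2 overlapped between the genotypes. Cpeb1 (chr7:81347026-81458001), which binds the cytoplasmic polyadenylation element, had 94.94 and 133.8 CPM in WT and 146 and 132.8 in Dnmt3l KO, a log2 fold change of 0.28 (SE 0.22, FDR 0.425). Elavl2 (chr4:91211533-91400108) had 81.9 and 78.89 CPM in WT and 71.19 and 117.4 in Dnmt3l KO, a log2 fold change of 0.24 (SE 0.25, FDR 0.565).

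The members differ in base composition, and over all genes the difference between these libraries moved with it. Boll, Dazl and Elavl2 have transcripts of 34.6%, 37.0% and 38.5% GC, and only 0.9%, 3.0% and 5.6% of genes lie lower. Pum2 has 42.2% GC. Dnd1, at 57.9%, lies above 89.7% of genes, and Nanos3 stands at 56.3%, Nanos2 at 52.7%, Nanos1 at 49.6% and Cpeb1 at 48.2%. In Dnmt3l KO against WT the median log2 fold change was 0.48 over the tenth of genes with the lowest GC content and -0.52 over the tenth with the highest, and across 14549 genes, which share these libraries and are not independent replicates, Spearman's rho of GC content with the log2 fold change was -0.44.

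When the fit was offset by GC content and length of the transcripts, Boll had a log2 fold change of 0.19 (FDR 0.587), Pum2 of 0.45 (FDR 0.23) and Dazl of 0.15 (FDR 0.777). Dnd1 had -0.60 (FDR 0.272) and Nanos1 -0.79 (FDR 0.142). Elavl2 turned from 0.24 to -0.36 (FDR 0.409). Nanos1 kept its value, Boll and Dazl lost most of theirs and Pum2 about as much as it kept. Cpeb1, like Nanos1 close to the median GC content of 49.1%, moved from 0.28 to 0.19 (FDR 0.641). Nanos3 moved from -0.95 to -0.62 (FDR 0.6) and Nanos2 from 0.20 to 0.35 (FDR 0.847). The offset was computed from these data and takes out any difference that runs with GC content or length, whatever its origin. The part of GC content in the result was not tested further. Cell type markers moved with the genotype as well. Of the 12 L/Z spermatocyte markers 7 were called higher and 0 lower in Dnmt3l KO, with a median log2 fold change of 1.30, and the sums are given above. Late germ cell markers summed to 54.29 and 75.32 CPM in WT and to 21.4 and 15.96 in Dnmt3l KO. Of these 12 markers 5 passed the filter on low counts, and 2 of the 5, Piwil1 and Spag6, were called lower. Spag6 had 37 and 58 fragments in WT and 1 and 8 in Dnmt3l KO. It passed the filter only through WT, so its call gives no support of its own. The 12 spermatogonia markers had a median log2 fold change of -0.80, with Sohlh1 called lower, and summed to 2313 and 2144 CPM in WT and to 1099 and 1871 CPM in Dnmt3l KO. Replicate 1 of Dnmt3l KO, lowest in that sum, was also the lowest of the 6 libraries for Dnd1, Nanos1, Nanos2 and Nanos3. The part of these markers in the values of the members was not tested.

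**Figure D2:**
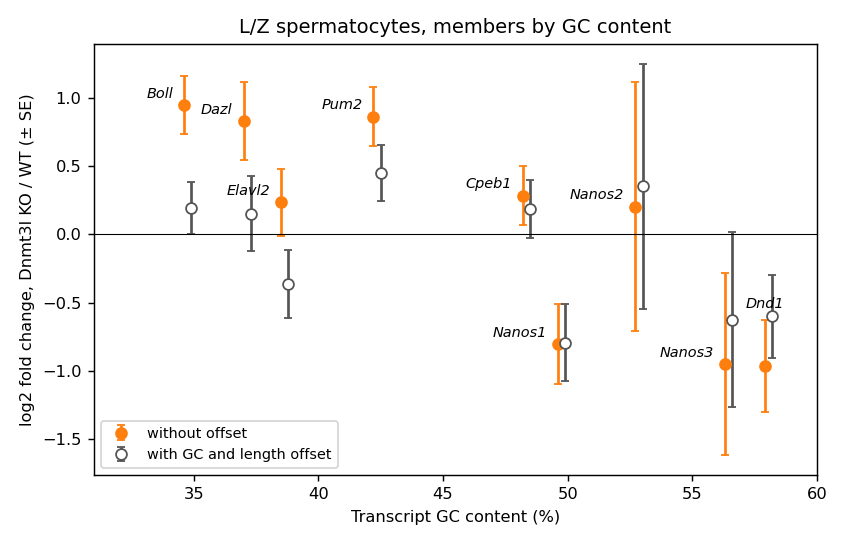
Log2 fold change of Dnmt3l KO over WT in L/Z spermatocytes (± SE of the fit, 2 libraries per group) against the GC content of each transcript in percent, without an offset (filled) and with the GC and length offset (open). Boll falls from 0.95 to 0.19 with the offset, whereas Nanos1 stays at -0.80 and -0.79.

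Leaving out 1 library at a time also ended calls by FDR alone. Boll had an FDR between 0.0318 and 0.157 over the 6 such fits and Pum2 between 0.0536 and 0.186. Both kept their direction, with log2 fold changes between 0.86 and 1.01 for Boll and between 0.74 and 0.96 for Pum2.

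In Pld6 KO against WT L/Z spermatocytes, the comparison for the loss of piRNAs, Boll and Pum2 had the smallest p-values of the 9 members. Only 0.225% of all genes were called. Boll had 58.59 and 68.76 CPM in Pld6 KO, above both WT libraries, for a log2 fold change of 0.67 (SE 0.21, FDR 0.374). Pum2 had 328.3 and 374.9 CPM, a log2 fold change of 0.60 (SE 0.21, FDR 0.445). Elavl2, at 92.9 and 94.55 CPM, was also above both WT libraries by a log2 fold change of 0.22 (FDR 0.805). With these, 3 members did not overlap in the higher direction and 0 in the lower one, against 21.6% and 21.3% of all genes. With the GC and length offset Boll had 0.29 (FDR 0.93) and Pum2 0.20 (FDR 0.969), and Elavl2 turned to -0.17 (FDR 0.984), where Spearman's rho of GC content with the log2 fold change was -0.34 across 14549 genes. Dazl, Dnd1, the NANOS genes and Cpeb1 overlapped WT, with log2 fold changes between -0.26 and 0.62. The Pld6 KO and Dnmt3l KO comparisons share their WT libraries and are not independent of each other.

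Set directly against Pld6 KO, Dnmt3l KO L/Z spermatocytes showed 4 members higher and 2 lower without overlap, beside 26.9% and 26.2% of all genes. Only 0.0477% of all genes were called. Dazl differed by a log2 fold change of 0.71 (SE 0.29, FDR 0.242), Dnd1 by -0.93 (SE 0.34, FDR 0.21) and Nanos1 by -0.74 (SE 0.29, FDR 0.231). Boll and Pum2 differed by 0.28 and 0.26 (FDR 0.516 and 0.548). None of these differences between the 2 knockouts passed the test. Nanos3 turned from -0.69 to 0.25 and Nanos2 from -0.42 to 0.86 with the 45S rRNA factor, with FDR values of 0.904 and 0.717.

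At P0 no member was called either, and the one with the smallest p-values in the DKO comparisons was Nanos2 (chr7:18987524-18988962). It encodes the RNA-binding protein that holds male fetal germ cells out of meiosis and later keeps spermatogonial stem cells. It was at or near 0 in WT, with 0 and 1 fragments. Pld6 KO held 1, 2, 3 and 2 fragments in its 4 libraries, and Dnmt3l KO held 3 and 0. In DKO it reached 17, 11 and 66 fragments, or 1.813, 0.8339 and 2.766 CPM. All 3 DKO libraries thus lay above all 8 others.

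With 3 fragments per library as the floor, the DKO mean of 1.80 ± 0.97 CPM (SD, n = 3) was at least 7.12-fold higher than WT, at least 6.91-fold higher than Pld6 KO and at least 6.89-fold higher than Dnmt3l KO. The lowest DKO library, replicate 2, was still at least 3.29-fold above the WT floor. The tests across all genes gave FDR values of 0.244 against WT, 0.442 against Pld6 KO and 0.0954 against Dnmt3l KO, none of which passed. Nanos2 was in these fits only because it passed the filter through DKO, so that the tests give no support of their own, and the counts above are a description. Over the 7 alternatives that kept every library its FDR against WT ran from 0.0395 to 0.246, the lowest with only the 2 compared groups in the fit, where 101 genes in all were called against 2 with all groups. Without 1 library it ran from 0.138 to 1.0 over 11 fits.

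Few genes were called in these comparisons, 0.0126% against WT, 0.0% against Pld6 KO and 0.0755% against Dnmt3l KO. DKO libraries all above WT were seen for 15.7% of genes, all above Pld6 KO for 3.31% and all above Dnmt3l KO for 19.4%. Measured as an interaction of the 2 knockouts, Nanos2 in DKO departed from additivity by 1.90 on the log2 scale (SE 2.34, FDR 0.753), an interval too wide to tell a joint effect from a sum. No gene was called for such a departure (0.0% of 15901 by edgeR, 1740 at an unadjusted p under 0.05).

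**Figure D3:**
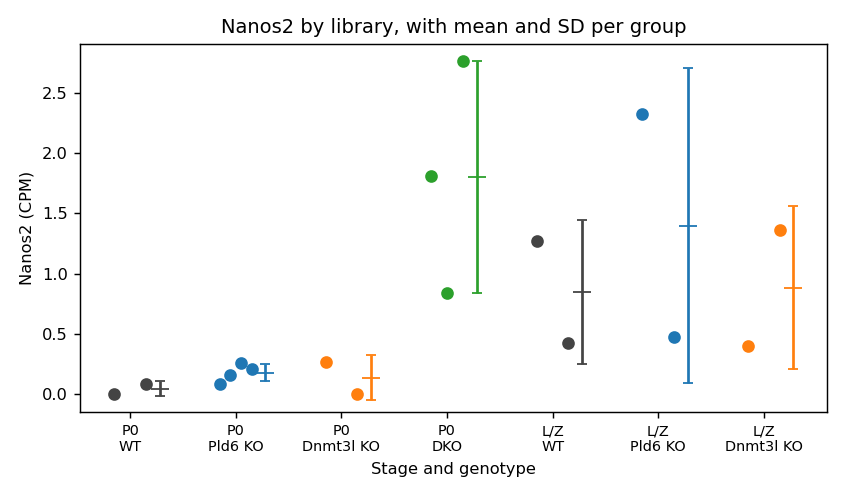
Nanos2 in CPM in each of the 17 libraries (points), with the mean and SD of each group beside them. The 3 DKO libraries at P0 lie between 0.8339 and 2.766 CPM and the other 8 P0 libraries at or below 0.2631 CPM, while the L/Z libraries range from 0.3999 to 2.326 CPM in all 3 genotypes.

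The sum of the 12 prospermatogonia markers varied between the P0 libraries, from 102.9 to 483.5 CPM, so Nanos2 was also set against this sum. Nanos2 came to 0.503 ± 0.178% of the sum in DKO (SD, n = 3) and to at most 0.0803% in each of the other 8 libraries. Markers of spermatogonia, cells in which Nanos2 is expressed, summed to 444.7, 201 and 467.5 CPM in DKO replicates 1 to 3, an order that Nanos2 shared over these libraries. The sums were 349.3 and 275 CPM in WT, 178.9, 344.6, 534.8 and 178.7 CPM in Pld6 KO, and 231 and 159.7 CPM in Dnmt3l KO. The highest sum, in Pld6 KO replicate 3, went with 3 fragments of Nanos2. The part of these markers in the values of Nanos2 was not tested. Of the 11 other genes listed within 100000 bases of Nanos2, 9 were tested, with log2 fold changes in DKO against WT between -0.65 and 0.71 and no FDR below 0.737.

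The promoters of Nanos2 and Dazl are shown because the Dnmt3l KO acts on DNA methylation at CpG, and the 2 genes differ widely in CpG content. The sequences are from RefSeq on GRCm38.p6, the assembly of mm10, and 8 of the 9 members had an entry. Each is the part of the 250 bases before the RefSeq start that also precedes every GENCODE start, on the strand of the gene, with CG in capitals:
Nanos2, chr7:18987274-18987399, plus strand: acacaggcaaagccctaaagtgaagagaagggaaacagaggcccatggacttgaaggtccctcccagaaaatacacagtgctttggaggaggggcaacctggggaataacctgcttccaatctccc
Dazl, chr17:50293637-50293870, minus strand: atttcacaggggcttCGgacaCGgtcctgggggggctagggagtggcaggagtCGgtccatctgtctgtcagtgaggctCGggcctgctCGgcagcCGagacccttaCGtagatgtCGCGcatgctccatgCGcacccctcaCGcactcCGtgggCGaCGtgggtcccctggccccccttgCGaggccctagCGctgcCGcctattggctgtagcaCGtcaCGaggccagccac

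Over the full 250 bases Nanos2 has 0 CG and Dazl 20. The letters CG read the same on both strands. Of 27025 promoters 8.3% had 0, the median was 6, and 17.7% had 20 or more. Pum2 has 34, Nanos1 and Cpeb1 25 each, Boll 11, Elavl2 10 and Nanos3 3. The Dnmt3l KO alone left Nanos2 at 3 and 0 fragments at P0, and Dazl overlapped WT there.

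Dazl at P0 varied together with the germ cell markers. The WT libraries measured 107.5 and 90 CPM, and the 4 Pld6 KO libraries 48.39, 145.1, 131.6 and 146.6 CPM. Dnmt3l KO libraries stood at 171.2 and 107.1 CPM and DKO libraries at 151.9, 74.97 and 159 CPM. The groups overlapped. Pld6 KO replicate 1 stood far below the other 3 of its group, and there the prospermatogonia markers summed to 102.9 CPM, against 356.4 to 483.5 CPM in the other 3. As a share of that sum Dazl was 34.5 ± 1.3% for WT (SD, n = 2), 36.4 ± 7.7% for Pld6 KO (n = 4), 32.5 ± 6.6% for Dnmt3l KO (n = 2) and 36.7 ± 3.5% for DKO (n = 3). Its coefficient of variation over the 11 libraries was 31.9% in CPM and 14.8% as the share.

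**Figure D4:**
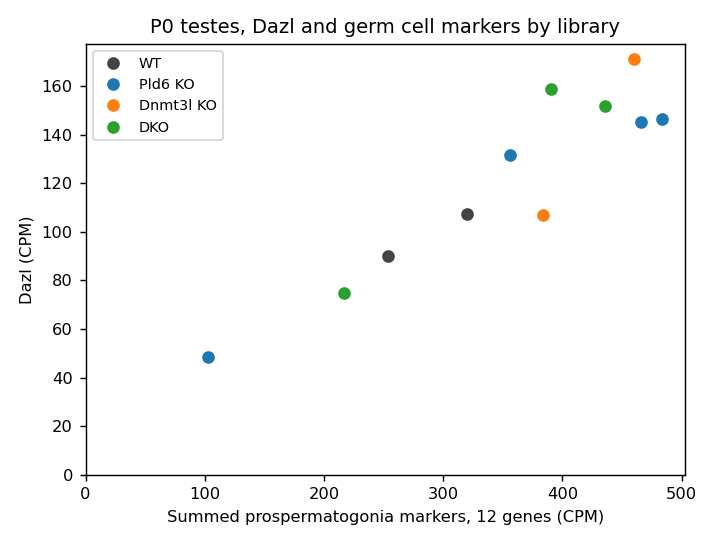
Dazl in CPM against the summed CPM of 12 prospermatogonia marker genes in each of the 11 P0 libraries, coloured by genotype. The library at the lower left, with 48.39 and 102.9 CPM, is Pld6 KO replicate 1, and Dazl stands between 27.9% and 47.0% of the marker sum in every library.

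The genes most like Dazl over the 11 P0 libraries, by Pearson's r of log2 CPM, were Mageb4 (r = 0.986, Spearman's rho 0.918), the germ cell helicase gene Ddx4 (r = 0.969, rho 0.964) and the piRNA helicase gene Mov10l1 (r = 0.965, rho 0.927). They were picked as the highest of all genes, so no p is given, and Ddx4 and Mov10l1 are among the 12 markers. Without the 2 libraries in which Dazl lay farthest from its median, r was 0.955, 0.921 and 0.901. For Pum2, the closest were Srpk2 (r = 0.949, rho 0.918), Fam208a (r = 0.916, rho 0.809) and the deadenylase gene Cnot7 (r = 0.916, rho 0.691). Without the 2 libraries in which Pum2 lay farthest from its median, r was 0.826, 0.68 and 0.658.

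Pum2 varied least at P0. Its lowest library was Pld6 KO replicate 4 at 196 CPM and its highest was DKO replicate 3 at 265.2 CPM, a coefficient of variation of 8.47% over the 11 libraries. As a share of the prospermatogonia marker sum its coefficient of variation was 67.2%, so this share varied more than the level itself. Its log2 fold changes against WT were -0.12 for Pld6 KO (SE 0.145, FDR 0.971), 0.06 for Dnmt3l KO (SE 0.17, FDR 0.89) and 0.06 for DKO (SE 0.15, FDR 0.959).

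**Figure D5:**
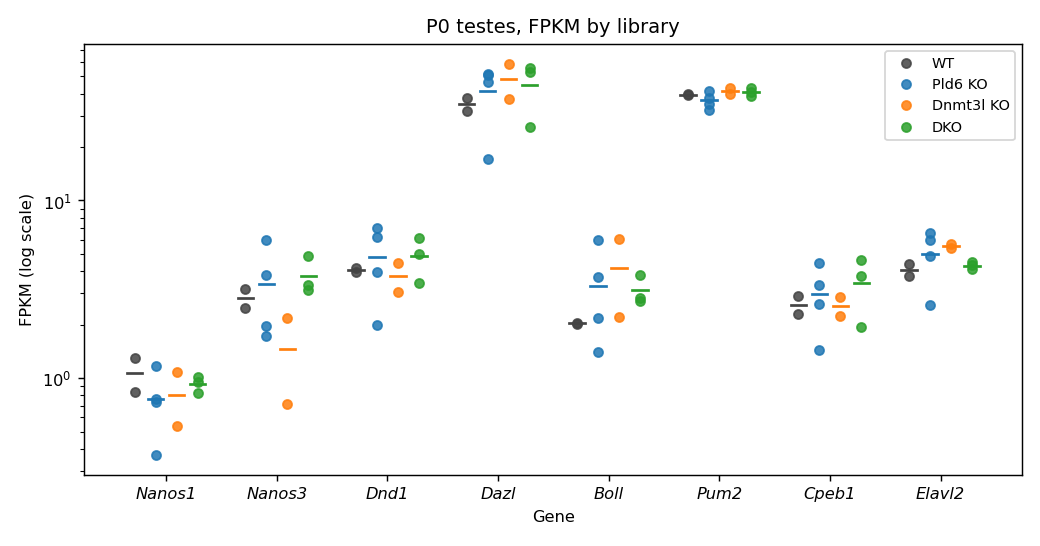
FPKM on a log scale of 8 genes in each of the 11 P0 testis libraries (points, coloured by genotype), with a bar at each group mean; Nanos2 is left out because it is 0 in 2 libraries. Pum2 is close to 39.5 FPKM in WT and varies least, and the genotypes overlap for most genes.

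The other members were low at P0, and none was called. In Pld6 KO all 9 overlapped WT, where 11.5% of genes did not, and 0.00629% of genes were called. In Dnmt3l KO, Boll and Elavl2 lay above both WT libraries and Nanos3 below, where 25.3% and 24.3% of all genes did so. There 0.0% of genes were called (2056 at an unadjusted p under 0.05, 0 of them members). Boll and Elavl2 are low in GC content and Nanos3 is high, as given above. Across 15773 genes, Spearman's rho of GC content with the log2 fold change was -0.385 in Dnmt3l KO against WT. It was 0.407 in DKO against Dnmt3l KO and 0.04 in Pld6 KO against WT. No GC offset was fitted at P0, so the part of GC content there was not tested. Boll had 22 and 22 fragments in WT and 66 and 24 in Dnmt3l KO. Its high library, Dnmt3l KO replicate 1, also held 92.59 CPM of late germ cell markers, against 5.373 to 15.52 CPM in the other P0 libraries. The part of these markers in the value of Boll was not tested, and without that library its log2 fold change against WT was 0.16.

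For Nanos3, WT held 17 and 21 fragments, Dnmt3l KO 15 and 5, and DKO 17, 26 and 67. Its log2 fold change was -0.87 (SE 0.67, FDR 0.583) in Dnmt3l KO against WT and 1.34 (SE 0.62, FDR 0.275) in DKO against Dnmt3l KO. Nanos1 ranged from 14 to 87 fragments, and its mean was 1.07 ± 0.33 FPKM in WT (SD, n = 2) and 0.928 ± 0.098 in DKO (n = 3). Dnd1, Cpeb1 and Elavl2 stayed within log2 fold changes of -0.07 and 0.48 of WT in every knockout. In DKO against WT, Nanos2, Nanos3 and Boll were the 3 members higher without overlap, beside 15.7% of all genes. Nanos2 was in this fit only through DKO. In DKO against Dnmt3l KO, Nanos2 and Nanos3 were higher without overlap, as were 19.4% of all genes. There Elavl2 was lower without overlap (log2 fold change -0.39, SE 0.29, FDR 0.482), as were 18.7% of all genes.

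Whether an effect differed between the stages was tested over both tables, with the stage difference of WT taken out. By FDR alone, 0.665% of 16547 genes differed for Dnmt3l KO and 0.0121% for Pld6 KO, against 0 members. Pum2 came closest, with an effect in L/Z spermatocytes above that at P0 by 0.76 for Dnmt3l KO (SE 0.26, FDR 0.166) and by 0.69 for Pld6 KO (SE 0.25, FDR 0.434) on the log2 scale. DESeq2's Wald test called the former (FDR 0.0372).

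The pathway around the members was read from 5 lists holding 68 other genes, of which 66 were tested in L/Z spermatocytes. In Dnmt3l KO against WT, 7 of the 66 were called higher and 3 lower, beside the 3.89% and 1.58% of all genes given above. Pabpc2, among the lower ones, passed the filter on low counts only through WT. The median log2 fold change of the 66 was 0.44. With the GC and length offset 1 of 66 was called, Cpeb2, and the median was 0.20, beside 1.92% of all genes called. Without Dnmt3l KO replicate 1 no pathway gene was called (0 of 66, beside 1 of all 14662 genes), and without WT replicate 1 there were 2, beside 0.621% of all genes.

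Among the 8 paralogues of the members, 2 rose and none fell. Cpeb2, a CPEB family protein, measured 7.011 and 8.817 FPKM in WT libraries, 10.64 and 12.43 FPKM with Pld6 KO and 29.56 and 25.51 FPKM with Dnmt3l KO. Its log2 fold change in Dnmt3l KO against WT was 1.79 (SE 0.22, FDR 0.0032), with 1.61 under the GC offset (FDR 0.0116), and its transcript has 47.5% GC. It passed the FDR threshold under 10 of 10 alternatives and in 5 of 6 fits without 1 library, the highest FDR being 0.0732. Cpeb4 rose from 9.92 and 9.689 FPKM (WT) to 24.98 and 27.46 FPKM (Dnmt3l KO), with 16.14 and 19.51 FPKM for Pld6 KO between them, a log2 fold change of 1.42 (SE 0.21, FDR 0.00683, and 0.0549 with the GC offset). At P0 both stayed between 2.583 and 4.558 FPKM in every library.

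The stage difference of the Dnmt3l KO effect passed its test for Cpeb2 at 1.56 (SE 0.29, FDR 0.0388) and for Cpeb4 at 1.74 (SE 0.32, FDR 0.0369). No pathway gene passed this test in 7 of the 14 fits without 1 library. Cpeb1, the member of the same family, overlapped WT in the same L/Z libraries at 0.28, as given above. Its difference from Cpeb2 and Cpeb4 was not tested.

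Of 12 tested genes of the CCR4-NOT deadenylase and its TOB adaptors, the machinery that NANOS proteins use, Tob1 was the 1 called, higher by a log2 fold change of 1.07 (SE 0.28, FDR 0.0434). Of 18 genes of polyadenylation and poly(A) binding, the poly(A) polymerase gene Papolg rose by 1.34 (SE 0.22, FDR 0.0113) and the poly(A)-binding protein genes Pabpc4 and Pabpc2 fell. Pabpc4 fell by 1.08 on the log2 scale (SE 0.24, FDR 0.0285). Pabpc2 had 13 and 20 fragments in WT against 0 and 1 in Dnmt3l KO (Pld6 KO had 0 and 0). This puts WT at least 3.44-fold higher than the Dnmt3l KO floor. Pabpc2 passed the filter on low counts only through WT. Its FDR of 0.0435 therefore gives no support of its own, and its counts are a description.

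Of 21 other germ cell RNA-binding genes, Ythdc2, which is needed for the entry into meiosis, rose by 1.51 (SE 0.25, FDR 0.0124), Adad1 rose by 1.04 (SE 0.27, FDR 0.0421) and Msi1 fell by 1.18 on the log2 scale (SE 0.28, FDR 0.0333). With the GC offset the FDR was 0.0681 for Pabpc4, 0.0689 for Ythdc2, 0.0702 for Papolg and 0.0914 for Tob1. It was 0.126 for Msi1 and 0.201 for Adad1, whose log2 fold change was then 0.59. Of 8 mRNAs reported as targets of DAZL or NANOS2, Sycp1, which codes for the transverse filament of the synaptonemal complex, rose by 1.30 (SE 0.31, FDR 0.0339, and 0.328 with the GC offset). Sycp1 is also 1 of the 12 L/Z spermatocyte markers. In this comparison the median log2 fold change was 1.30 for those markers, -0.80 for spermatogonia markers and -1.24 for Sertoli markers. The part of these markers in the values of the pathway genes was not tested.

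By edgeR with every library kept, no gene of these lists was called in Pld6 KO L/Z spermatocytes or at P0 in any genotype. DESeq2's Wald test called 1 gene of the lists, Sycp1, higher in P0 Dnmt3l KO than in WT and 1, Ybx2, lower in P0 DKO than in Dnmt3l KO. Both stood higher in Dnmt3l KO replicate 1 than in replicate 2, at 600 and 193 fragments for Sycp1 and 281 and 79 for Ybx2. Replicate 1 also had the highest P0 sums of L/Z spermatocyte markers (266.8 CPM) and late germ cell markers (92.59 CPM). The part of these markers in these calls was not tested. In DKO testes, where Nanos2 rested on 17, 11 and 66 fragments, the 8 target mRNAs had log2 fold changes against WT between -0.19 and 1.59. Their median was 0.32, and only Sycp1 had an unadjusted p under 0.05 by edgeR. It had 129 and 114 fragments in WT and 203, 254 and 749 in DKO, a log2 fold change of 1.24 (SE 0.40, FDR 0.435 by edgeR). Sycp1 also lay above both P0 WT libraries (3.277 and 2.898 FPKM) in every single-knockout library, where Nanos2 had at most 3 fragments. It measured 3.932 to 6.243 FPKM in Pld6 KO and 15.49 and 4.967 FPKM in Dnmt3l KO. The log2 fold change of Dnmt3l KO against WT was 1.755 (SE 0.425, FDR 0.256 by edgeR). Sycp1 has a transcript of 34.6% GC, and the part of GC content in its P0 values was not tested. Whether Sycp1 moved with Nanos2 was not tested.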

How the data were processed

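Poly(A)+ RNA was measured with a stranded TruSeq kit, as single-end 50-base reads in L/Z spermatocytes and paired-end 100-base reads in P0 testes. Per the submitters' processing notes the authors used TopHat and Cuffdiff on mm10, with versions not given in the sources used here, and deposited 1 table per stage with estimated counts and FPKM values per gene and replicate. Table replicates numbered from 0 were taken as the label's replicates in the same order of numbers. The estimated counts, deposited by the authors and 97.8% (L/Z) and 97.7% (P0) whole, were rounded. Genes with a status other than OK were left out (6 and 2), Cnot1 in L/Z among them.

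edgeR 4.0.16 (filterByExpr, TMM, quasi-likelihood test) was fitted over all groups of a stage, and over the 14 libraries without DKO for differences between stages. This kept 14662, 15901 and 16547 genes. CPM used TMM library sizes, and correlations a prior count of 2. The named genes were the members, every called list gene up to the 2 largest per direction, list and comparison (otherwise the gene with the smallest p), and the 3 genes most like each member with a mean of at least 50 counts. The members, lists and tests were chosen with earlier results of these data known. Alternatives were DESeq2 1.42.0, limma 3.58.1 on log2(FPKM + 1) and log2(FPKM + 0.1), other filters, scalings, factors and offsets, and fits without 1 library. The fits were tested on simulated data. P-values measure the spread between these samples, and floors cover counting error only.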

Additional observations from a re-analysis of the deposited data

Results flagged for a closer look

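Dazl in the P0 Pld6 KO group was flagged because 1 of its 4 libraries lay far from the others. Replicate 1 had 48.39 CPM against 131.6 to 146.6 CPM in the other 3, and the gap to the nearest library was 0.847 of the whole range of the group, above Dixon's 95% critical value for 4 samples. Of the 9 genes tested in this group 1 was flagged, and chance flags about 1 in 20. The sum of the 12 prospermatogonia markers was also lowest there, at 102.9 CPM. Dazl in that library was 47.0% of this sum, the highest share of the 11 P0 libraries.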

How the results depend on the processing

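The count of members called was 0 in each of the 11 comparisons and differed under 4 settings. In L/Z Dnmt3l KO against WT it was 2 with no fold threshold (Boll and Pum2), and between 0 and 1 over the fits without 1 library, the 1 being Dnd1 without Dnmt3l KO replicate 2. In P0 DKO against WT it was 1 (Nanos2) with the compared groups alone, a setting that called 101 genes in all against 2. For the stage difference of the Dnmt3l KO effect it was 1 (Pum2) by DESeq2's Wald test. The causes were not tested. The other 207 recomputed counts of called members equalled 0, and no called value changed sign. With the replicate number as a block, 0 members were called in every comparison, though 0.0416 was then the FDR of Dazl in L/Z Dnmt3l KO against WT. Same-numbered libraries of L/Z WT and Pld6 KO deviated together (correlation of deviations 0.485), where replicate 1 of both was rich in 45S rRNA, but those of Dnmt3l KO did not (-0.144 and -0.135), and at P0 the correlations ran from -0.332 to 0.271, so the numbers were not taken as pairs. The block took the 3 pathway genes that differed between stages to 0. Pathway genes called in L/Z Dnmt3l KO against WT were 10, and 6 by limma on log2(FPKM + 1) or with the 45S rRNA batch factor, 1 with the GC offset, and 0 to 13 without 1 library. Groups of 2 libraries, and at most 19 fragments of Nanos2 outside DKO, limit what can be detected. With 1 library left in a group, that library is assumed to vary like the others.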
